A study of Mus musculus with 2 samples.

Results

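The 37 genes described here mark astrocytes, and they were taken by symbol from a table of 37303 mouse genes measured in the cerebral cortex. All 37 were present in the table, each under its own Ensembl gene ID, and the isoform values of the same gene IDs were used with them. They were chosen by name as known astrocyte genes, with earlier results of these data already known. The study compared 1 wild-type (WT) library with 1 library from an Rbfox3 homozygous knockout mouse (KO, Rbfox3-/-). Per the study's methods both came from the right cortical hemisphere of male mice at postnatal day 56, on a C57BL/6N background (the labels give B6), with WT animals taken as littermates. The knockout is the constitutive EUCOMM tm1a allele of Rbfox3, so it was present in every cell, although the protein, known as NeuN, is a splicing regulator of postmitotic neurons. The extraction note in the labels names cortex or hippocampus for both libraries, whereas the sample source reads cerebral cortex.

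Astrocytes are the glial cells that enwrap synapses and blood vessels. They clear glutamate and potassium released by neurons, return glutamine to them, move water through their endfeet, are coupled by gap junctions, and supply lipids and secreted factors. Genes for these tasks are much more abundant in astrocytes than in other brain cells, so in a piece of whole cortex their levels follow both the share of astrocytes and the RNA that each astrocyte holds, and fewer cells of a type and less RNA per cell cannot be told apart in such bulk samples.

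Levels are given in FPKM, the fragments mapped to a transcript scaled to its length and to the size of the library. Differences are given either as the plain ratio of the FPKM values or as a log2 ratio, log2 of (KO + 1) over (WT + 1) FPKM, which is positive where the KO library was higher. With 1 library per genotype there is no replicate error and no test, and every difference describes these 2 libraries. The table holds no fragment counts, so the absolute depth is unknown, but the KO over WT ratio seen most often among 1951 barely detected genes with a single isoform was 0.887. If those genes had 1 fragment in each library, the KO library was about 1.13 times as deep. Rbfox3 itself stood at 57.3 FPKM in the WT and 6.46 FPKM in the KO library, 8.87-fold lower in the library labelled KO.

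On the deposited FPKM scale, the astrocyte genes as a group stood at nearly the same level in both libraries. Their summed level was 3772 FPKM in the WT and 3812 FPKM in the KO library, and their median log2 ratio was 0.02, as was that of all 13042 genes tested, those whose 2 libraries averaged 1 FPKM or more. All 37 passed that filter. As a share of the summed FPKM of the genes tested, the members were 0.288% in the WT and 0.323% in the KO library. They are abundant genes: their median mean level was 35.1 FPKM against 10.1 FPKM over all genes tested, and 34 of them had a mean of at least 10 FPKM. All were present in both libraries. In the WT library they ranged from Cst3, a secreted protease inhibitor, at 519 FPKM down to Plcd4, a phospholipase C, at 3.28 FPKM. They were chosen by name as astrocyte genes, so their presence is no check of that label.

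No member was 2-fold higher, where 0.491% of all genes tested were, and no member was 2-fold lower, where 0.583% were. With a smaller limit, a log2 ratio of 0.32 in size, 3 of 37 members were higher in the KO library (Gjb6, Kcnj10 and Slc6a11), beside 6.95% of all genes tested. A further 3 were lower (Fabp7, Gfap and S100b), beside 5.52% of all genes tested. Slc6a11 lay just inside the upper limit at a log2 ratio of 0.33 and Fgfr3 just outside it at 0.30, and at the lower limit S100b was just inside at -0.33 and Aqp4 just outside at -0.27. Of the members, 20 lay above 0 on the log2 scale, and so did 54.4% of all genes tested. As shares of the members, 8.11% were past the limit on each side and 54.1% lay above 0. With 3 members on each side, these shares rest on few genes. The background includes many genes of low level. At a mean of at least 5 FPKM, again 3 members were past the limit on each side, beside 5.94% of all such genes higher and 4.05% lower.

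The order of the members by level was nearly the same in both libraries. Ranked from 1 to 37, no gene moved by more than 6 places and 27 moved by at most 2. The FPKM of 21 members differed by less than 10% between the libraries. The range that held the central 90% of genes of like mean level (classes of 1 to 10, 10 to 30, 30 to 100 and at least 100 FPKM) was used to see which members stood out for their level. It left out 6 members (16.2%), Fabp7, Gfap, S100b, Aqp4, Gjb6 and Kcnj10, against 10% of all genes by construction.

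**Figure D1:**
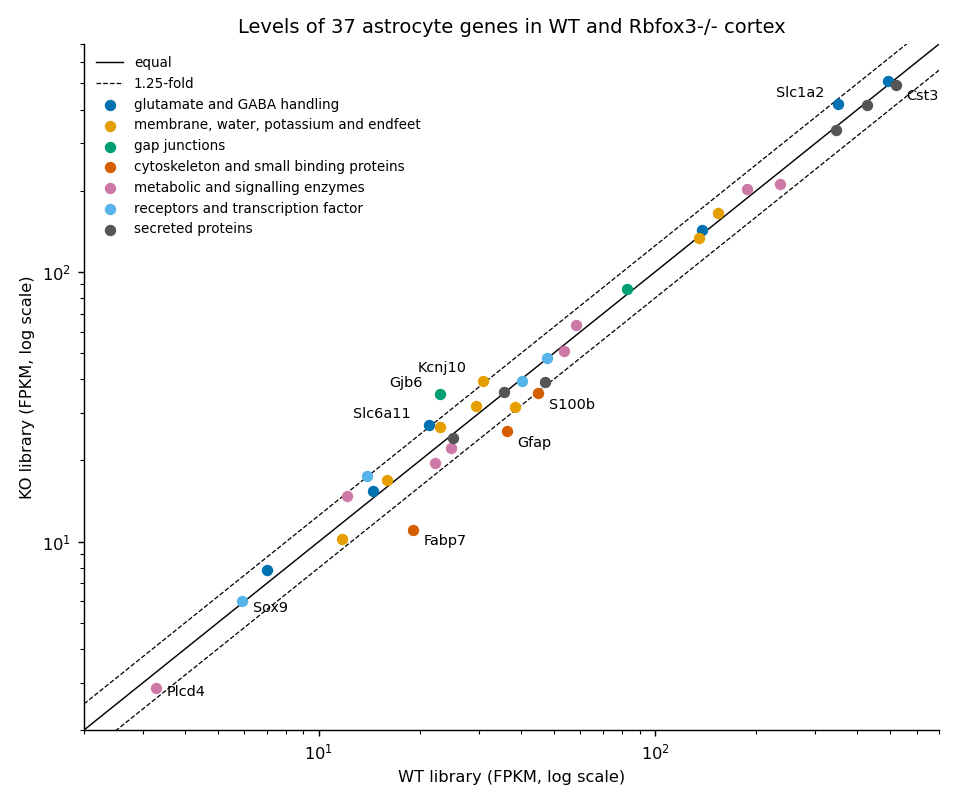
Level of each of the 37 astrocyte genes in the WT library (horizontal axis, FPKM, log scale) and in the KO library (vertical axis, FPKM, log scale), 1 point per gene, coloured by role, with the line of equal values and dashed lines at the plain ratio that the smaller limit stands for. Most points lie between the dashed lines, while Fabp7, Gfap and S100b lie below the lower line and Gjb6, at 22.9 and 35.2 FPKM, lies well above the upper one, with Kcnj10, Slc6a11 and Fgfr3 at or just above it.

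The 3 members grouped here as cytoskeleton and small binding proteins were all lower in the KO library. The role groups were drawn up with earlier results of these data known, so a shared direction within a role is no result of its own. Fabp7, the brain fatty acid binding protein of radial glia and astrocytes, stood at 19.05 FPKM in the WT and 11.01 FPKM in the KO library, 1.73-fold lower (log2 ratio -0.74). Gfap, the intermediate filament protein by which astrocytes are most often stained, stood at 36.3 and 25.8 FPKM, 1.40-fold lower (log2 ratio -0.47). S100b, a calcium-binding protein, stood at 45.0 and 35.7 FPKM, 1.26-fold lower (log2 ratio -0.33). Fabp7 thus had the lowest ratio of all members and Gfap the next lowest. Against Slc1a3, a glutamate transporter of the same cells that was nearly level, Fabp7 was 13.8% of the Slc1a3 value in the WT library and 7.69% in the KO library, and Gfap was 26.2% and 18.02%.

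The differences of Fabp7 and Gfap were carried by their main isoforms. The most abundant isoform of Fabp7 stood at 18.9 FPKM in the WT and 10.8 FPKM in the KO library, and that of Gfap at 33.2 and 23.7 FPKM. The isoform shares of Gfap hardly moved, its main isoform making up 91.4% of the gene in the WT and 91.8% in the KO library. S100b has 1 isoform in the table. S100b is also made by oligodendrocytes, whose markers were lower in the KO library as described further on, and the part of these cells in its value was not tested. The data do not assign the values of Fabp7 and Gfap to a cell type either. With the median of genes of like transcript length taken off, the log2 ratio of S100b was -0.24, inside the limit, and that of Aqp4 was -0.33, past it.

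Because Fabp7, Gfap and S100b were lower together, the bases just upstream of their RefSeq starts (GRCm38.p6) are shown, with Gjb6, the member with the highest ratio, beside them. Fabp7 lies on the plus strand of chromosome 10 (chr10:57784673-57784880, cut short by the exon of an annotated transcript that starts further upstream), Gfap on the minus strand of chromosome 11 (chr11:102897201-102897450), S100b on the plus strand of chromosome 10 (chr10:76253586-76253835) and Gjb6 on the minus strand of chromosome 14 (chr14:57133612-57133861). Each is written 5′ to 3′ on the strand of its gene, ends at the start or at that exon, and has capitals where a searched motif was found on either strand.
Fabp7: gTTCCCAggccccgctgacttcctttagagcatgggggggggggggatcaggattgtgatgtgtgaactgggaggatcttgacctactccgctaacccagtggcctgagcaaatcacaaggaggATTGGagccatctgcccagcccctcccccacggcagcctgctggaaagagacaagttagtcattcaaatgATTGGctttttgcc
Gfap: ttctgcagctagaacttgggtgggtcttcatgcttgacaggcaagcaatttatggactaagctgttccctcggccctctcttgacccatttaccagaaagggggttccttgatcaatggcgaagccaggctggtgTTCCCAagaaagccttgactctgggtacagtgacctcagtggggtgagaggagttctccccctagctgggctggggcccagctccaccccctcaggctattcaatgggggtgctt
S100b: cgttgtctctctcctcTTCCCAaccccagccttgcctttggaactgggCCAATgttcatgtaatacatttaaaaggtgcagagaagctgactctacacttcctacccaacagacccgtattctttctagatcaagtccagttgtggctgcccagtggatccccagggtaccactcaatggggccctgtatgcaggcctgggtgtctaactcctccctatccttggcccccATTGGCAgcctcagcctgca
Gjb6: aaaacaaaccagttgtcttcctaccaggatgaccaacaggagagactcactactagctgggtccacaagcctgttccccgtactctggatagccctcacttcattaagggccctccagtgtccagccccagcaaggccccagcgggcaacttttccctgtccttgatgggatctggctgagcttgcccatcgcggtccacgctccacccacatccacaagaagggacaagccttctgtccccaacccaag

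The motifs searched on both strands were the box of the TATA-binding protein, spelled TATAAA, the box bound by nuclear factor Y, spelled CCAAT, a half-site of nuclear factor I, spelled TTGGCA, the core of RBPJ, the DNA-binding partner of Notch, spelled TGGGAA, and the site of STAT factors, spelled TTCNNNGAA. Promoter windows of RefSeq were matched for 33 of 37 members, 32 by the symbol in the table and Ppap2b under its newer name Plpp3. The 250 bases before the start were searched in the 42 windows of these genes and in all 32851 windows of the table. The RBPJ core, seen here from the opposite strand as TTCCCA, was found 249 bases before the start of Fabp7, 115 before that of Gfap and 234 before that of S100b, and not in the window of Gjb6. It was found in 31.0% of member windows and in 21.6% of all windows, so that it is a common string of letters. The 12 members with it lay on both sides of 0. Aldh1l1, Slc4a4, Mlc1, Mfge8 and Ntsr2 had log2 ratios above 0 and the others below. The nuclear factor Y box was found in Fabp7 (126 and 56 bases before the start) and S100b (202 and 20), in 38.1% of member windows and 33.8% of all windows. In S100b the second of these overlaps the half-site of nuclear factor I, which was found in 9.52% of member windows and 12.3% of all. The TATA box was in 11.9% of member windows and 12.4% of all, and the STAT site in 11.9% and 7.02%. None of these matches was tested as a binding site.

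The 2 gap junction genes differed from each other in their ratios. Gja1 encodes connexin 43 and Gjb6 encodes connexin 30, the channel proteins that couple astrocytes. Gja1 was nearly level, at 82.7 FPKM in the WT and 86.7 FPKM in the KO library (log2 ratio 0.07). Gjb6 stood at 22.9 and 35.2 FPKM, 1.54-fold higher in the KO library (log2 ratio 0.60), which was the highest ratio of all members. Gjb6 amounted to 27.7% of the Gja1 value in the WT library and 40.6% in the KO library.

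The higher value of Gjb6 came mostly from 1 of its minor isoforms. Its most abundant isoform stood at 20.4 FPKM in the WT and 23.3 FPKM in the KO library, a ratio of 1.14 (log2 ratio 0.18), inside the limit of 0.32. Another isoform stood at 2.26 FPKM in the WT and 11.5 FPKM in the KO library, so that its share of the gene was 9.90% and 32.6%. The table does not name its isoforms, so this one was not matched to an annotated transcript. Expressed as the isoform shift, which is 0.5 times the summed absolute difference of the isoform shares, the difference was 0.231. Of the 24 members that have several isoforms and reach 1 FPKM in each library, Gjb6 alone reached a shift of 0.2, where 11.3% of 8677 such genes did. At 5 FPKM or more in each library it was 1 of 23 members, where 6.32% of all such genes did.

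**Figure D2:**
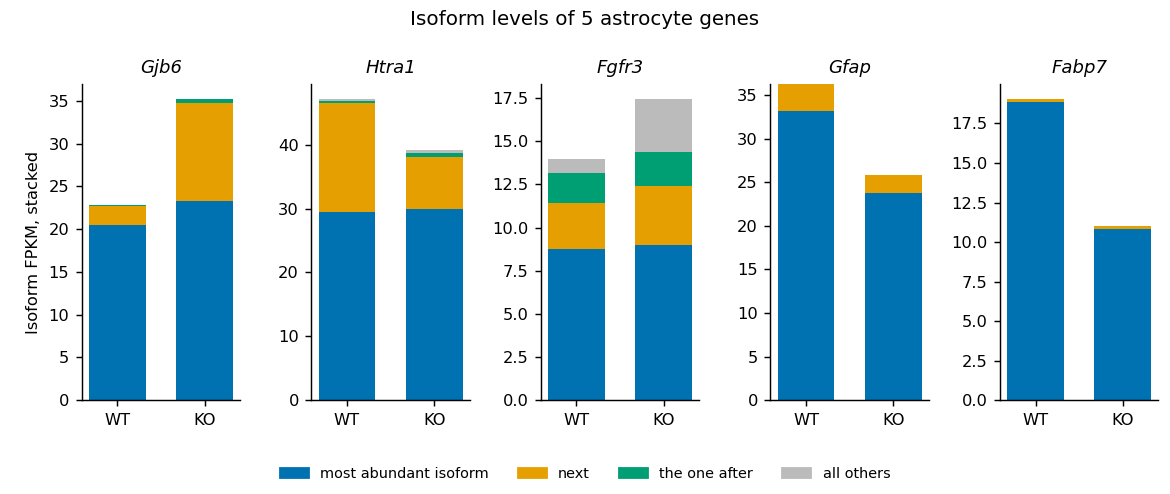
Isoform levels of 5 members (FPKM, stacked, from 0) in the WT and KO libraries, 1 bar per library, with the most abundant isoform in blue, the next in orange, the one after in green and all others in grey. The blue part of Gjb6 is 20.4 and 23.3 FPKM and its orange part 2.26 and 11.5 FPKM, whereas in Gfap and Fabp7 the blue part itself is lower in the KO library.

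The isoform makeup of most members was close between the libraries. The median isoform shift of the 24 members, Gjb6 included, was 0.0188, against 0.0656 over all such genes. These medians were not matched for level, and the members are more abundant than most genes. All 24 kept the same most abundant isoform. Htra1, a secreted serine protease, had the next largest shift at 0.157. Its main isoform was level at 29.5 FPKM in the WT and 30.02 FPKM in the KO library, and another isoform stood at 17.0 and 8.03 FPKM, so the lower gene value of Htra1 (47.2 and 39.2 FPKM, log2 ratio -0.26) came from that isoform. In Fgfr3, a fibroblast growth factor receptor of astrocytes, the gene value was 13.9 and 17.4 FPKM (log2 ratio 0.30) while the main isoform stood at 8.73 and 8.98 FPKM. When each gene was represented by its most abundant isoform alone, the members past the limit of 0.32 on the lower side were again Gfap, S100b and Fabp7, and the higher ones were Slc6a11 and Kcnj10, without Gjb6, beside 8.27% of all genes higher and 7.004% lower.

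All 6 genes of glutamate and GABA handling had a positive log2 ratio, as did 54.4% of all genes tested. Slc1a2, the glutamate transporter GLT-1 that clears most synaptic glutamate, stood at 349 FPKM in the WT and 418 FPKM in the KO library (log2 ratio 0.26, or 0.08 with the median of genes of like transcript length taken off). Slc1a3, the glutamate transporter GLAST, was nearly level at 138 and 143 FPKM (log2 ratio 0.05). Slc6a11, the GABA transporter GAT-3, stood at 21.2 and 27.0 FPKM, 1.27-fold higher in the KO library (log2 ratio 0.33). It was the 1 gene of this role past the limit. Glul, the glutamine synthetase that turns glutamate into glutamine, was among the most abundant members and stood at 494 and 511 FPKM (log2 ratio 0.05).

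The other genes of this role were of lower level and differed little. Slc25a18, a mitochondrial glutamate carrier, stood at 14.5 and 15.4 FPKM (log2 ratio 0.09), and Slc7a10, a transporter of small neutral amino acids that include serine, at 7.02 and 7.87 FPKM (log2 ratio 0.14). Both share exon sequence with a gene on the opposite strand, Slc25a18 with Atp6v1e1, a proton pump subunit at 192 and 165 FPKM, and Slc7a10 with Lrp3. The library kit keeps the strand, but whether the counting used it is not given in the sources used here. These values are thus less certain. Exon sequence is likewise shared with an opposite-strand gene in Slc1a2, Glul, Ttyh1, Aldh1l1, Dio2, Plcd4, Pla2g7 and Fgfr3. Where such a gene had a value, it was at most 6.19 FPKM, that of Zfp142 in the KO library. Zfp142, at 5.02 and 6.19 FPKM, overlaps Plcd4 and stood above it in both libraries (Plcd4 at 3.28 and 2.85 FPKM). The value of Plcd4 is thus less certain too. Glul and Aldh1l1 also share exon sequence with a same-strand gene that has no value.

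The 8 genes of the astrocyte membrane went both ways. Kcnj10, the inward rectifier potassium channel Kir4.1, stood at 30.8 FPKM in the WT and 39.4 FPKM in the KO library, 1.28-fold higher (log2 ratio 0.34). Aqp4, the water channel of the endfeet, stood at 38.4 and 31.6 FPKM, 1.22-fold lower (log2 ratio -0.27). Kcnj10 and Aqp4, both concentrated at the endfeet, thus lay on opposite sides, and Kcnj10 was 80.2% of the Aqp4 value in the WT library and 125% in the KO library. Both have 1 isoform in the table.

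Slc4a4, a sodium bicarbonate cotransporter, stood at 22.9 FPKM in the WT and 26.5 FPKM in the KO library (log2 ratio 0.21). Mlc1 and Hepacam, membrane proteins that form a complex at astrocyte contacts, stood at 29.4 and 31.8 FPKM (log2 ratio 0.11) and at 16.0 and 16.9 FPKM (log2 ratio 0.07). Both partners were thus slightly higher. Atp1b2, the beta subunit of the sodium pump found on astrocytes, stood at 154 and 165 FPKM (log2 ratio 0.09). Cldn10, a claudin, stood at 11.7 and 10.2 FPKM (log2 ratio -0.18). Ttyh1, a tweety family membrane protein, was level as a gene at 135 and 134 FPKM (log2 ratio -0.01), with its main isoform at 53.0 and 58.9 FPKM and another isoform at 11.5 and 4.97 FPKM.

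**Figure D3:**
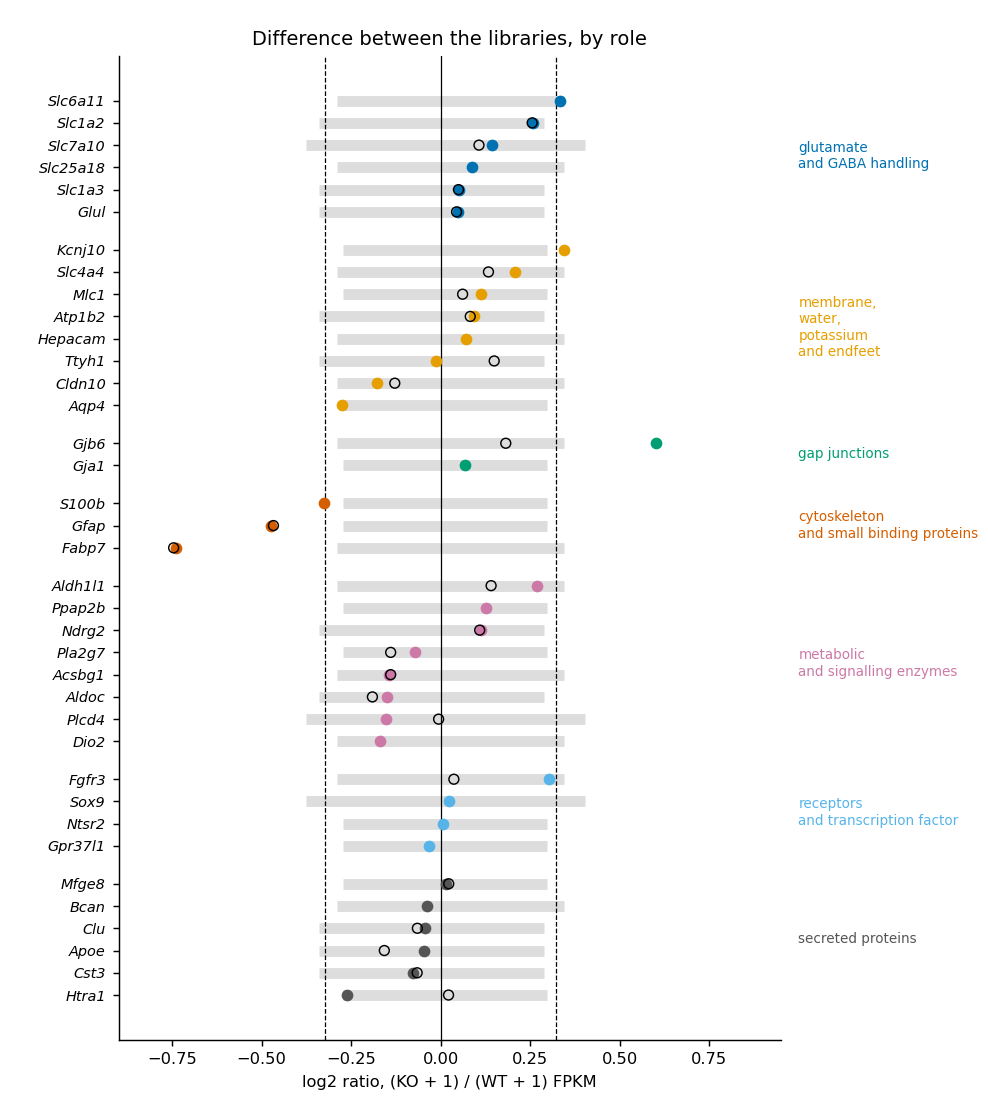
Log2 ratio of each member, (KO + 1) over (WT + 1) FPKM, grouped by role, with filled points for the gene, open circles for its most abundant isoform where it has several, grey bars for the central 90% of genes of like mean level and dashed lines at 0.32 in either direction. The filled points of Fabp7 (-0.74) and Gfap (-0.47) lie far left of their bars, and that of Gjb6 (0.60) lies far right while its open circle (0.18) is inside the bar.

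No enzyme of the list passed the limit of 0.32. Aldh1l1, the folate enzyme widely used to label all astrocytes, stood at 12.1 FPKM in the WT and 14.8 FPKM in the KO library (log2 ratio 0.27), and its main isoform stood at 9.53 and 10.6 FPKM. Gfap amounted to 299.95% of the Aldh1l1 value in the WT library and 174.9% in the KO library, so that these 2 common astrocyte markers lay on opposite sides. Aldoc, the brain form of the glycolytic enzyme aldolase, was abundant and stood at 235 and 212 FPKM (log2 ratio -0.15). Ndrg2, a cytoplasmic protein of the hydrolase fold family, stood at 187 and 203 FPKM (log2 ratio 0.11).

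The other enzymes had log2 ratios smaller in size than that of Aldh1l1. Acsbg1, which activates fatty acids, stood at 24.7 and 22.2 FPKM (log2 ratio -0.14), and Ppap2b, a lipid phosphate phosphatase, at 58.0 and 63.4 FPKM (log2 ratio 0.13). Pla2g7, an enzyme that breaks down platelet-activating factor, stood at 53.7 and 51.1 FPKM (log2 ratio -0.07). Dio2, the deiodinase that makes active thyroid hormone in the brain, stood at 22.2 and 19.6 FPKM (log2 ratio -0.17). Plcd4 was the lowest member at 3.28 and 2.85 FPKM (log2 ratio -0.15), and it shares exon sequence with Zfp142 on the opposite strand.

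Of the receptors and the transcription factor, Fgfr3 had the highest ratio and the other 3 were level. Ntsr2, a neurotensin receptor of astrocytes, stood at 47.8 FPKM in the WT and 48.1 FPKM in the KO library (log2 ratio 0.01). Gpr37l1, an orphan receptor, stood at 40.2 and 39.3 FPKM (log2 ratio -0.03). Sox9, a transcription factor present in the nuclei of adult cortical astrocytes, stood at 5.90 and 6.01 FPKM (log2 ratio 0.02). Ntsr2 and Sox9 each lay on the other side of 0 with the upper quartiles of the libraries set equal, at log2 ratios of -0.02 and -0.00059.

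The secreted proteins had the highest summed level of all roles, and apart from Htra1 (47.2 and 39.2 FPKM, log2 ratio -0.26) they were nearly level. Cst3 stood at 519 FPKM in the WT and 493 FPKM in the KO library (log2 ratio -0.08). Apoe, the lipid carrier of the brain, stood at 428 and 414 FPKM (log2 ratio -0.05), and Clu, the lipoprotein clusterin, at 345 and 335 FPKM (log2 ratio -0.04). These 3 genes thus differed by 5.13% or less, and with genes of like transcript length set to 0 their log2 ratios were 0.02, 0.04 and 0.00. Mfge8, which tags apoptotic cells for uptake, stood at 35.5 and 36.0 FPKM (log2 ratio 0.02, or -0.01 with the upper quartiles set equal), and Bcan, the extracellular matrix proteoglycan brevican, at 25.0 and 24.3 FPKM (log2 ratio -0.04). Apoe and Cst3 are also made by microglia.

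A list of 71 further astrocyte genes had a median log2 ratio of 0.02, as did the 37. On each side 2 of the 71 lay past the limit of 0.32, beside 6.95% of all genes on the upper and 5.52% on the lower side. The highest were Agxt2l1, a phospholyase, at 4.31 FPKM in the WT and 6.33 FPKM in the KO library (log2 ratio 0.46) and Itih3, a hyaluronan-binding protein, at 4.05 and 5.85 FPKM (log2 ratio 0.44). The lowest were Hes5, a target of Notch, at 3.47 and 2.52 FPKM (log2 ratio -0.34) and Slc15a2, a peptide transporter, at 15.1 and 11.8 FPKM (log2 ratio -0.33). The summed level of the 71 was 4089 FPKM in the WT and 4071 FPKM in the KO library. The list was drawn up with earlier results of these data known, and the data do not assign its values to a cell type.

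Genes that astrocytes raise when they become reactive were mostly scarce. Of 39 listed, 18 had a mean under 1 FPKM and 21 were measured, with a median log2 ratio of -0.14, 0 of them higher and 3 lower past the limit, beside 6.95% and 5.52% of all genes tested. The lowest were H2-T23, a class Ib histocompatibility gene, at 5.53 and 3.38 FPKM and Serpina3n, a secreted protease inhibitor, at 4.25 and 2.54 FPKM (log2 ratio -0.57 for each). The highest were Amigo2, an adhesion protein, at 2.86 and 3.75 FPKM (log2 ratio 0.30) and Cd44, a hyaluronan receptor, at 1.18 and 1.63 FPKM (log2 ratio 0.27), both within the limit. Of the 21 genes, 14 lay below 0 and 7 above. Gfap, itself the classical marker of the reactive state, also lay below 0. The data do not assign the values of these genes to a cell type.

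Among 19 measured genes of cholesterol synthesis and lipid transport, a task that in the adult brain falls largely to astrocytes, the median log2 ratio was 0.09, with 18 above 0, 3 higher and 0 lower past the limit, beside 54.4%, 6.95% and 5.52% of all genes tested. Insig1, a sterol-regulated protein of the endoplasmic reticulum, stood at 25.3 FPKM in the WT and 33.1 FPKM in the KO library (log2 ratio 0.38). The lowest were Abcg1, a sterol exporter (log2 ratio -0.05), and Scd2, a fatty acid desaturase (log2 ratio 0.00). These genes are not particular to astrocytes, and the data do not assign their values to a cell type.

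Markers of some other cell types and regions did not stand level. All 16 oligodendrocyte markers were lower past the limit of 0.32, beside 5.52% of all genes tested, and summed to 1959 FPKM in the WT and 1350 FPKM in the KO library (median log2 ratio -0.45), led by Trf (-0.70) and Mobp (-0.66), with Car2 and Aspa least lower at -0.36. Of 15 measured striatal markers 14 were below 0 and 13 of these past the limit (median log2 ratio -0.94). Penk at -2.11 and Adora2a at -1.85 were lowest and Foxp1 at 0.09 and Actn2 at -0.19 highest. The 16 striatal markers present, including 1 under the filter, summed to 297 FPKM in the WT and 140.0 FPKM in the KO library. Of 12 choroid plexus and ependyma markers 3 were measured, Ttr at -5.56, Kl at -1.04 and Rarres2 at -0.22. All 12, including 9 under the filter, summed to 233 and 8.74 FPKM. Striatal and choroid plexus markers thus stood higher in the WT library. The striatum holds astrocytes of its own, and the part of such tissue in the lower Gfap, Fabp7 and Aqp4 values was not tested. The part of hippocampus, which the extraction note in the labels names, was not tested either, and no list of hippocampal markers was used.

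The remaining lists had medians nearer to that of the astrocyte genes. Each count past the limit below stands beside 6.95% of all genes tested on the upper and 5.52% on the lower side. The 15 neuron markers had a median log2 ratio of 0.02 with 0 higher and 3 lower past the limit. They ran from Nefm at -0.87 and Nefl at -0.54 to Syt1 at 0.28 and Gad1 at 0.30. The 9 measured markers of oligodendrocyte precursors had a median of -0.07 with 3 lower past the limit, from Olig2 at -0.55 and Sox10 at -0.52 to Gpr17 at 0.05 and Neu4 at 0.09. The 16 microglia markers had a median of -0.06 with none past the limit, from Tmem119 at -0.30 and C1qb at -0.19 to Siglech at 0.13 and Itgam at 0.16. The 16 endothelial and mural markers had a median of -0.08 with 2 lower past the limit, Cldn5 at -1.10 and Esam at -0.33, and with Slco1a4 at 0.11 and Rgs5 at 0.16 highest. The 6 measured markers of thalamus and hypothalamus had a median of 0.07, from Lef1 at -0.22 and Calb2 at -0.01 to Tcf7l2 at 0.28 and Rora at 0.46.

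**Figure D4:**
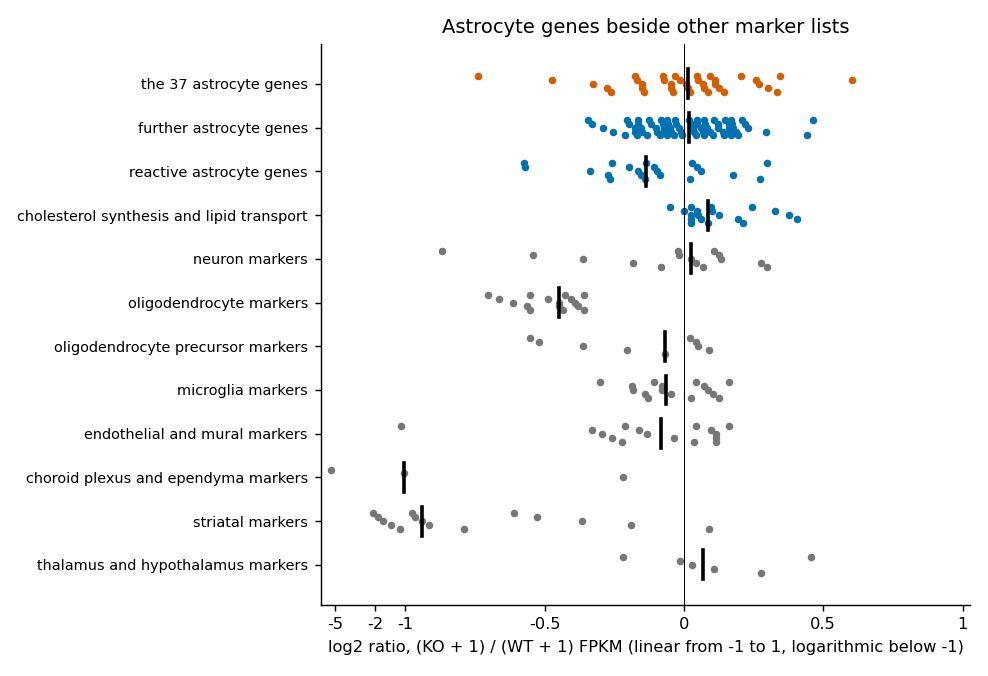
Log2 ratio of every measured gene, (KO + 1) over (WT + 1) FPKM, for the 37 astrocyte genes (orange), lists of related astrocyte genes (blue) and markers of other cells and regions (grey), 1 point per gene, with a black bar at the median of each list. The horizontal axis is linear from -1 to 1 and logarithmic below -1. The astrocyte median sits at 0.02, the oligodendrocyte median at -0.45 and the striatal median at -0.94.

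The ratios also went with transcript length across the whole table. Over 12872 genes with an annotated transcript, Spearman's rho between the length of the longest transcript and the log2 ratio was 0.30, and over the 37 members it was 0.36, where genes are not independent replicates and all points share the same 2 libraries. Members with a longest transcript under 2000 bases had a median log2 ratio of -0.05 (7 genes, 2 above 0), beside -0.07 over all such genes. Members of 2000 to 4000 bases had a median of 0.01 (18 genes, 10 above 0), beside 0.00, and members over 4000 bases 0.13 (12 genes, 8 above 0), beside 0.08. Fabp7, with a longest transcript of 880 bases, and S100b, with 1484, are among the short ones, while Kcnj10 with 5407, Slc6a11 with 4132 and Slc1a2 with 11595 are among the long ones. With the median of genes of like length taken off, Fabp7 and Gfap were still past the limit of 0.32 on the lower side and Gjb6 on the upper side, and Kcnj10 (log2 ratio 0.27) and Slc6a11 (log2 ratio 0.30) were inside the limit.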

How the data were processed

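Total RNA from 1 WT and 1 Rbfox3-/- cortex was sequenced with a strand-specific kit. The authors aligned reads with TopHat to GRCm38 and deposited FPKM values per gene and per isoform from Cufflinks, with 1 WT and 1 KO column per table (versions, annotation and strand setting are not given in the sources used here). Columns of the authors' own comparison (p-values, q-values, significance marks) were not used. Log2 ratios were computed with 1 FPKM added, over genes whose mean of the 2 libraries reached 1 FPKM, in Python 3.11.15 with pandas 2.3.3 and numpy 2.4.6. Figures were drawn with matplotlib 3.10.9. The limits on the log2 ratio were 1 (2-fold) and 0.32. Isoform shifts were taken for genes that have several isoforms and reach 1 FPKM in each library. Gene positions, exon overlaps and transcript lengths came from GENCODE vM21 (GRCm38). With 1 library per genotype no test or interval was possible, and the depth is unknown.

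The members, the 7 role groups and the 11 other lists were chosen with earlier results of these data known. Named were all 37 members, the 2 highest and 2 lowest log2 ratios of each other list, and Rbfox3 as a check of the labels. Of the genes that share exon sequence with a member, Atp6v1e1, Lrp3 and Zfp142 were named. A gene that this rule names is not reported here. The central 90% range, the length adjustment and the use of the most abundant isoform alone were added after the data were seen, and the genes whose promoters are printed were chosen by their ratios. Scripts were tested on simulated data. Alternatives were 0.1 FPKM added, no filter, a mean of at least 5 FPKM, 2 other scalings, summed isoforms, and, for isoform shifts, at least 5 FPKM or isoforms of at least 5% only.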

Additional observations from a re-analysis of the deposited data

How the results depend on the processing

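No member past a limit changed sign under any of the 8 alternatives. The 3 members higher at a log2 ratio of 0.32 became 1, Gjb6, with the upper quartiles of the libraries set equal and also 1, Gjb6, with the median of genes of like transcript length taken off. The median log2 ratio of the members was 0.00187 with the median of genes at 10 FPKM set to 0 and, on the other side of 0, -0.00957 with the upper quartiles set equal. Of 295 values of single members, 277 kept their sign and their side of the limit, 10 from 8 genes changed sign (among them Htra1, from -0.26 to 0.02 with the most abundant isoform alone, and Ttyh1, from -0.01 to 0.15), 7 fell inside the limit and 1 passed it. Fabp7 and Gfap stayed past the limit in all 8 alternatives, and Gjb6 in all but the most abundant isoform alone (log2 ratio 0.18). Part of the agreement in these counts was fixed in advance. Dropping or raising the filter cannot change the log2 ratio of a member, and summing the isoforms gave back nearly the gene value. For the 13 members with 1 isoform, the most abundant isoform alone also gave the same value. No paired analysis was possible because each genotype has 1 library, and no library could be left out. Depth limits could not be computed from FPKM, and values of a few FPKM, such as those of Plcd4 or the minor isoforms, are the least certain.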
